A study of Homo sapiens with 48 samples.

Results

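The 10 circadian clock genes PER1, PER2, PER3, CRY1, CRY2, BHLHE40, BHLHE41, NR1D1, NR1D2 and DBP were chosen by name, with earlier results of these data known. All 10 were found among the 60610 genes of the count table, and all 10 passed the filter on low counts that left 19626 genes for testing. Their transcripts were measured by sequencing poly(A) RNA of HEK293, a line established from human embryonic kidney, into which the angiotensin II (AII) receptor AT1R had been stably transfected. The study asked how AT1R and the receptor of epidermal growth factor (EGF) act together on the transcriptome. The cells were all of 1 clone, picked by limiting dilution after cotransfection with a puromycin resistance plasmid and selection in puromycin with losartan, an AT1R blocker, and were kept without serum during the stimulus, controls included. The stimuli were AII at 1 nM, EGF at 10 µg/L or their combination (AII + EGF). Unstimulated cells served as control, each condition lasted 6 h or 24 h, and each of the resulting 8 groups had 6 labelled libraries.

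The mammalian clock is a feedback loop of transcription. CLOCK and BMAL1 (listed here by its older symbol ARNTL) bind as a pair to E-boxes in the promoters of the PER and CRY genes, and the PER and CRY proteins in turn inhibit that pair. BHLHE40 and BHLHE41 (also called DEC1 and DEC2) are repressors that bind E-boxes themselves, NR1D1 and NR1D2 encode the nuclear receptors REV-ERBα and REV-ERBβ, which repress the BMAL1 gene, and DBP is an activator that binds D-boxes of output genes. Most cultured cells hold this loop, and serum, growth factors and hormones are known to reset it.

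The promoters of the 5 genes whose transcripts carried most of the differences against control are shown here, because E-boxes are the sites at which this loop acts on its own genes. Each is 300 bases, from 250 before to 50 after a transcription start of RefSeq on GRCh38.p14, written 5′ to 3′ on the strand of the gene, with E-boxes (CACGTG) and E′-boxes (CACGTT, read as AACGTG on the other strand) in capitals.
CRY1 promoter, chr12:107093500-107093799, minus strand: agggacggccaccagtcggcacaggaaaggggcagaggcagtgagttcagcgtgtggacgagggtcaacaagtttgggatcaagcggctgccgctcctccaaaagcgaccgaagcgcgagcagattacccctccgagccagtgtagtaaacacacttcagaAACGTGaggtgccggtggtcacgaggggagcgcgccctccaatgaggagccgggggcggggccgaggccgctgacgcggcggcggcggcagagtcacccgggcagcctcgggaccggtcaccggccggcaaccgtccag
BHLHE40 promoter, chr3:4979187-4979486, plus strand: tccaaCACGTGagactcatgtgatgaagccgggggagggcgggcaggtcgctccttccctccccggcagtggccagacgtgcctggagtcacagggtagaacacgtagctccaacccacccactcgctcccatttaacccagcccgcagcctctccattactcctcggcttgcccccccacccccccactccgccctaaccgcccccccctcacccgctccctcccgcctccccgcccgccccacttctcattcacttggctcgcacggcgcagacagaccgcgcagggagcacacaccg
BHLHE41 promoter, chr12:26124988-26125287, minus strand: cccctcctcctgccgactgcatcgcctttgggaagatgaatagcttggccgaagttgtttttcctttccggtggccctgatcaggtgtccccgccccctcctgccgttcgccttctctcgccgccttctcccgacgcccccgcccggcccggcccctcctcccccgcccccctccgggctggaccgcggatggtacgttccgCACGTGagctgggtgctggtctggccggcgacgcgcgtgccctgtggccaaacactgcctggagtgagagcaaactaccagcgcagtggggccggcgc
NR1D2 promoter, chr3:23945871-23946170, plus strand: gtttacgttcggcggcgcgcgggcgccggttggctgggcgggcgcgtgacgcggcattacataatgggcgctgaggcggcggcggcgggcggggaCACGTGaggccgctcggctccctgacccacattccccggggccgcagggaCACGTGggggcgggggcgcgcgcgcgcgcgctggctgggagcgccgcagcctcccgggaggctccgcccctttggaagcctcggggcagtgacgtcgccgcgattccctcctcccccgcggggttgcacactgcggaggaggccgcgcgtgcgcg
PER1 promoter, chr17:8152355-8152654, minus strand: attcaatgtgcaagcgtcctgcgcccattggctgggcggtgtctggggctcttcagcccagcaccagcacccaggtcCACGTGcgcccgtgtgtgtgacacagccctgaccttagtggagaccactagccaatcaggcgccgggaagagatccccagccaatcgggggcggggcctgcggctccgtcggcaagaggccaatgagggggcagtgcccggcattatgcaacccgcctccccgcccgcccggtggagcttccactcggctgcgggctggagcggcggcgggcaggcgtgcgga

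An E-box lay in the promoters of 4 of the 10 genes, with its first base at position -173 from the start in PER1, -245 in BHLHE40, -48 in BHLHE41, and -155 and -105 in NR1D2, whose promoter at its second start holds a pair of them. An E′-box lay in those of 4 others, at -89 in CRY1, -197 in PER2, -188 in CRY2 at its second start and -168 in NR1D1. Searched on both strands, the E-box was present in 7.26% and the E′-box in 5.34% of the 35116 RefSeq promoters of the same length. Counted by promoter, each form lay in 4 of the 13 promoters of the 10 genes. The promoter at the first NR1D2 start held neither form. The PER3 promoter held the D-box TTATGTAA, found in 0.886% of all promoters, at -177 from its first start, and NR1D2 held its reverse complement at -194 from its second start. Neither E-box form was found in the DBP window. The full cAMP response element TGACGTCA, present in 1.85% of all promoters, was found in no window of the 10 genes. A match describes letters in a window and is no evidence of binding.

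Of the 48 libraries, 38 were used. Another 8 were left out because they formed 4 pairs whose counts differed by less than sampling noise (chi-square per degree of freedom 0.397 to 0.505, against 2.02 in the next closest of the 1128 pairs of libraries). These pairs joined libraries of different labels in 3 cases, for example control 6 h replicate 1 and EGF 24 h replicate 2. The next closest pair was AII 6 h replicates 1 and 2, followed by EGF 6 h replicates 3 and 4 (3.325). Each has consecutive titles, and both pairs were used as separate libraries. The other 2 libraries left out were those labelled AII 6 h replicate 6 and AII + EGF 6 h replicate 6. On a scale set by the 1492 genes called between those groups, where 0 is AII and 1 is AII + EGF, they lay at 0.858 and -0.00651. This left 4 control, 5 AII, 3 EGF and 4 AII + EGF libraries at 6 h, and 6, 5, 5 and 6 at 24 h, with totals of 17.8 to 29.96 M counts. Library titles form 1 unbroken series of numbers, which was split here into 8 runs. Each run is 1 cycle through the 4 treatments at 1 time. The libraries of runs 7 and 8, of which 1 (control 6 h replicate 6) and 4 (replicate 6 of each 24 h group) were used, stood apart in several clock genes and are given separately where they bear on a result. Fits without these runs were chosen after seeing the data, and at 6 h they drop only that control. Of run 1, only AII and AII + EGF libraries were used, so treatment and run are partly confounded at 6 h. What the runs stand for is not stated in the labels, and nothing says that replicates came from separate cultures, so p-values measure only the spread between these libraries. AGTR1, the gene of AT1R, lay between 3960 and 15200 CPM (counts scaled to a common library size, with TMM factors). Its group means ran from 4270 to 13100 CPM, so the receptor transcript was not at 1 level in all groups. The line's markers NEFM, VIM and KRT18 lay between 2400 and 9520, 170 and 621, and 28.6 and 106 CPM. LHX1, a kidney factor, lay between 7.41 and 15.1 CPM and PAX2, another, between 0.273 and 3.9 CPM (median 1.26). Markers of blood, endothelium and liver (PTPRC, CD3E, PECAM1, ALB) lay at 0.399 CPM or less. The fibroblast collagens COL1A1 and COL3A1 were present at 11.1 to 44.6 and 7.57 to 28.6 CPM.

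At 6 h the clock genes moved most under AII + EGF. CRY1 rose to 3.14 times its control level, BHLHE40 to 3.99 and BHLHE41 to 3.34 times, and NR1D2 fell 2.08-fold, whereas PER1, PER2 and PER3 did not pass the test in any 6 h comparison. A gene is called here when the adjusted p of edgeR was under 0.01, the change at least 1.5-fold and the mean of the higher group above 5 CPM. Under AII + EGF at 6 h, 4 of the 10 genes were called, 3 higher and 1 lower, where 12% of all tested genes were called (6.45% higher and 5.53% lower). Under EGF alone 2 of the 10 were called at 6 h, 1 higher and 1 lower, against 1.94% of all genes (1.62% higher, 0.321% lower). Under AII alone none of the 10 was called at 6 h by edgeR or by DESeq2, against 0.469% of all genes, while 3 of the 10 had an unadjusted p under 0.05. The median log2 change of the 10 genes under AII + EGF at 6 h was 0.02, beside -0.03 over all tested genes, since rises and falls stood side by side. In bulk RNA a change in the number of cells that hold a transcript and a change in the amount per cell cannot be told apart.

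**Figure D1:**
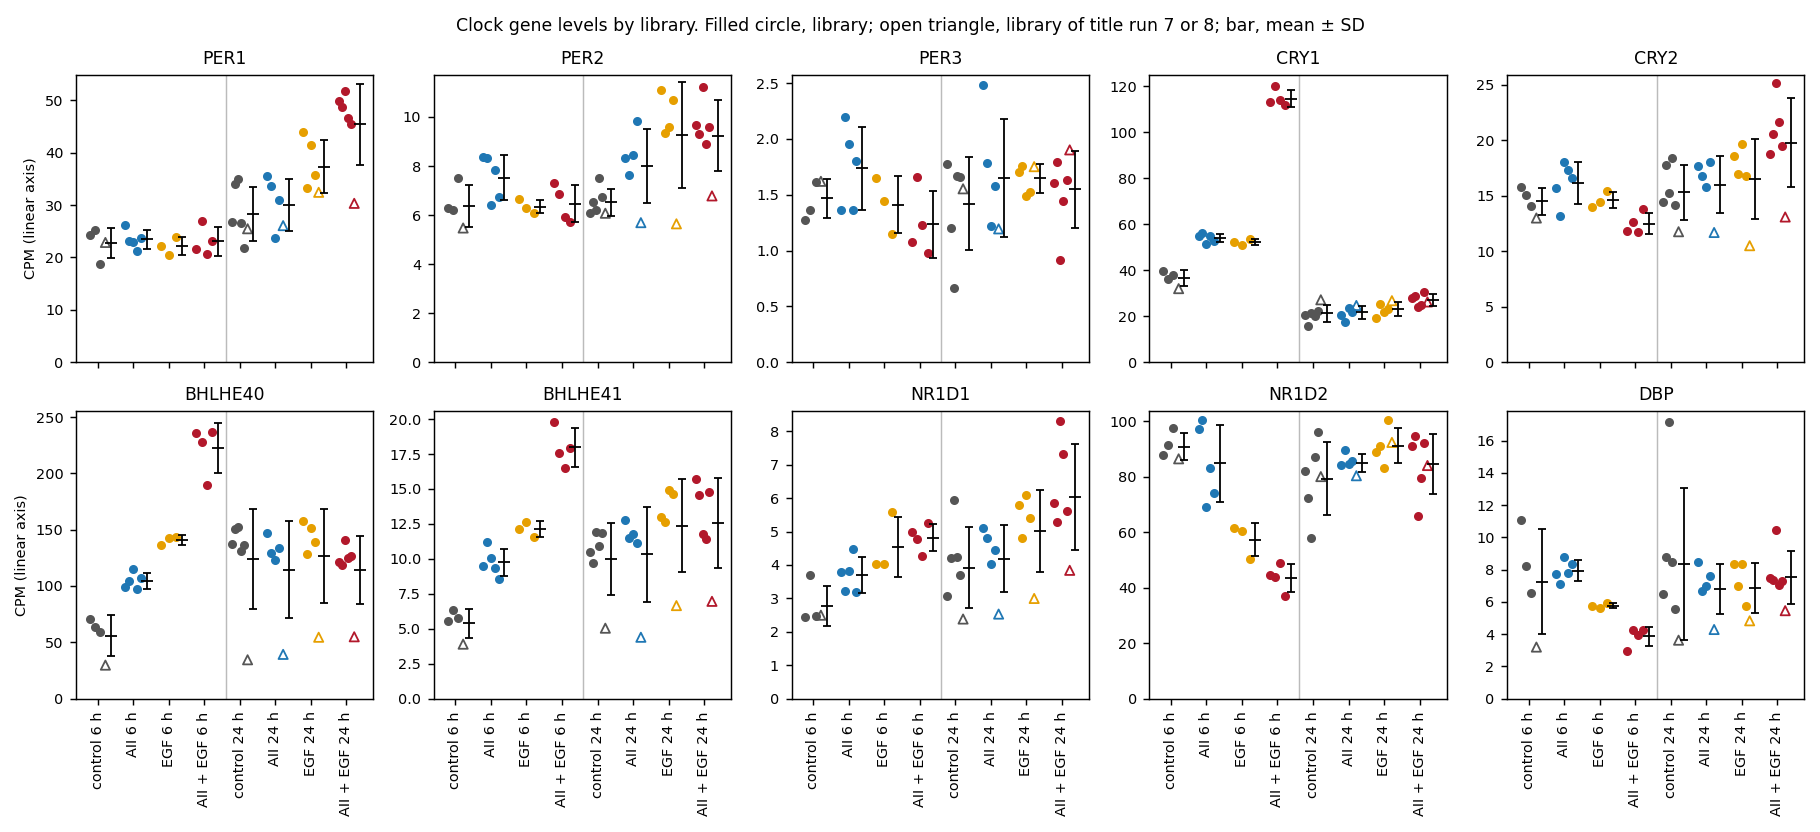
CPM (linear axes from 0) of the 10 clock genes in each of the 38 libraries, by treatment and time. Filled circles are libraries, open triangles are libraries of title runs 7 and 8, and bars give the group mean ± SD. CRY1 stands between 112 and 120 CPM in the 4 AII + EGF libraries at 6 h and at 56.0 CPM or less in every other library.

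CRY1, a cryptochrome that with the PER proteins forms the repressor of CLOCK and BMAL1, gave the clearest separation. At 6 h it was measured at 39.9, 36.3, 37.99 and 32.01 CPM in the control libraries and at 55.0, 56.0, 51.4, 54.8 and 52.7 CPM under AII. Under EGF it stood at 52.4, 50.8 and 53.5 CPM, and under AII + EGF at 113, 119.8, 114 and 112 CPM. Every stimulated library lay above every control, the AII and EGF libraries overlapped, and the AII + EGF libraries lay far above all others of this time. The log2 change was 0.56 ± 0.11 (SE) under AII (adjusted p = 0.0015) and 0.52 ± 0.12 under EGF (adjusted p = 0.0043), both past the p threshold and just below the 1.5-fold minimum, at 1.48-fold and 1.43-fold. With all 48 libraries both were called, at 0.88 ± 0.16 under AII (adjusted p = 5.6e-04) and 0.71 ± 0.16 under EGF (adjusted p = 0.0017), and with 40 libraries neither passed the p threshold (adjusted p = 0.014 and 0.19). Under AII + EGF it was 1.65 ± 0.11 (adjusted p = 2.5e-14). CRY1 was the only 1 of the 10 called between AII + EGF and EGF at 6 h (log2 1.13 ± 0.12, adjusted p = 3.1e-08), where 2.92% of all genes were called and 1.62% were higher. With title runs as a block BHLHE40 was called there too (0.65 ± 0.13, adjusted p = 3.2e-04), as it was without title runs 7 and 8, and fitting only the compared groups called BHLHE40, BHLHE41 and CRY1.

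The rise of CRY1 under AII + EGF exceeded the sum of the single rises on the linear scale. The group means were 36.5 ± 3.35, 54.0 ± 1.89, 52.3 ± 1.36 and 114.6 ± 3.6 CPM (SD, n = 4, 5, 3 and 4) in control, AII, EGF and AII + EGF. The excess over the sum of the AII and EGF effects was 44.95 ± 2.72 CPM (SE). On the log2 scale, where the test asks whether the folds multiply, the interaction of AII and EGF was 0.57 ± 0.16 with adjusted p = 0.092 and was not called. None of the 10 genes was called for the interaction at 6 h by edgeR or DESeq2, where 0.229% of all genes were, and 1 had an unadjusted p under 0.05. With title runs as a block in the fit the CRY1 interaction was 0.62 ± 0.13 (adjusted p = 0.0051) and was called, and without title runs 7 and 8 it was 0.63 ± 0.14 (adjusted p = 0.015) and was not. With only the near-identical pairs left out (40 libraries) it was 0.21 ± 0.25 (adjusted p = 1.0), and with all 48 libraries its sign turned, at -0.05 ± 0.22 (adjusted p = 0.99). The left-out libraries bear on this gene. On the scale of all 48 libraries CRY1 stood at 100.2 CPM in the library labelled AII 6 h replicate 6 and at 52.0 CPM in that labelled AII + EGF 6 h replicate 6, and at 79.3 and 80.3 CPM in the near-identical pair of replicate 1 of EGF and replicate 4 of AII + EGF. With only the pairs left out (40 libraries) the excess was 24.8 CPM, and with all 48 libraries 14.7 CPM.

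At 24 h CRY1 was lower in every group and close to its control. The control libraries ranged from 15.99 to 27.2 CPM (median 20.99, n = 6), AII from 17.5 to 24.7 (median 21.9, n = 5), EGF from 19.2 to 26.8 (median 22.96, n = 5) and AII + EGF from 24.1 to 30.8 (median 27.1, n = 6). These ranges overlapped, and the AII + EGF change of 0.35 ± 0.09 (adjusted p = 0.0062) passed the p threshold without reaching 1.5-fold. Between the controls CRY1 fell by 0.78 ± 0.10 on the log2 scale from 6 h to 24 h (adjusted p = 8.8e-07), but since every title run holds only 1 time, time and run cannot be told apart. CRY2, the second cryptochrome, showed no called change. Its group means ran from 12.5 ± 0.96 CPM (AII + EGF 6 h, n = 4) to 19.8 ± 3.99 CPM (AII + EGF 24 h, n = 6), and its log2 change under AII + EGF was -0.22 ± 0.17 at 6 h (adjusted p = 0.34, 95% interval -0.54 to 0.11) and 0.37 ± 0.13 at 24 h (adjusted p = 0.043).

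PER1, a period gene known to respond quickly to cAMP and growth signals in many cells, passed no test at 6 h and rose under AII + EGF at 24 h. At 6 h its group means lay between 22.2 ± 1.74 CPM (EGF, n = 3) and 23.5 ± 1.79 CPM (AII, n = 5), and the 95% interval of the AII + EGF change was -0.27 to 0.31 on the log2 scale. At 24 h PER1 ranged from 21.9 to 34.98 CPM in control (median 26.6, n = 6). Under AII it was 35.6, 33.6, 23.7, 30.9 and 26.1 CPM, and under EGF 43.9, 33.2, 41.4, 35.7 and 32.4 CPM. Under AII + EGF it ranged from 30.3 to 51.7 CPM (median 47.7, n = 6). In the AII + EGF group 5 of 6 libraries stood above every control, and the lowest, replicate 6 of title run 8, fell among them. The change was 0.68 ± 0.12 under AII + EGF (adjusted p = 7.0e-05), 0.40 ± 0.12 under EGF (adjusted p = 0.082) and 0.08 ± 0.12 under AII (adjusted p = 1.0).

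PER1 was the only 1 of the 10 genes called against control at 24 h. That is 1 of 10 under AII + EGF, where 2.89% of all genes were called (1.7% higher). Under EGF none of the 10 was called by edgeR or DESeq2, against 0.245% of all genes, with 2 at an unadjusted p under 0.05, beside 2878 of all 19626 genes. Under AII none was called, as in 0% of all genes (0 of 19626 by edgeR and 0 by DESeq2, with 343 at an unadjusted p under 0.05), and 1 of the 10 had an unadjusted p under 0.05. Between AII + EGF and AII at 24 h PER1 was again the only 1 called (log2 0.60 ± 0.13, adjusted p = 0.0015, 1.51-fold), against 1.45% of all genes and 0.851% higher. This call rested on a fold just above the minimum and was lost on leaving out any 1 of 4 libraries, AII replicates 3 and 6 and AII + EGF replicates 1 and 3, with values of 0.53 to 0.57. Between AII + EGF and EGF at 24 h none of the 10 was called by either tool (0.0917% of all genes). An unadjusted p under 0.05 was found in 2 of the 10, beside 2093 of all 19626 genes. For the interaction at 24 h none of the 10 and 0% of all genes were called (0 of 19626 by edgeR and 0 by DESeq2, with 660 genes and none of the 10 at an unadjusted p under 0.05).

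PER2, a period gene of the same loop, rose less. At 24 h it stood between 6.07 and 7.53 CPM in control (median 6.36, n = 6) and between 6.78 and 11.2 CPM under AII + EGF (median 9.45, n = 6). Under EGF it was 11.1, 9.36, 9.58, 10.7 and 5.64 CPM, so that 4 of 5 libraries stood above all controls and the library of title run 8 below them. The changes were 0.50 ± 0.13 under AII + EGF (adjusted p = 0.0064) and 0.51 ± 0.14 under EGF (adjusted p = 0.045), neither at 1.5-fold. Without title runs 7 and 8 (chosen after seeing the data), PER2 was called under EGF at 24 h (0.64 ± 0.11, adjusted p = 4.3e-04), as it was without EGF 24 h replicate 6 alone. At 6 h its largest change against control was 0.24 ± 0.16 (AII) and none passed. PER3, another period gene, was the lowest of the 10 at 1.24 to 1.74 CPM in the group means, and passed no test.

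**Figure D2:**
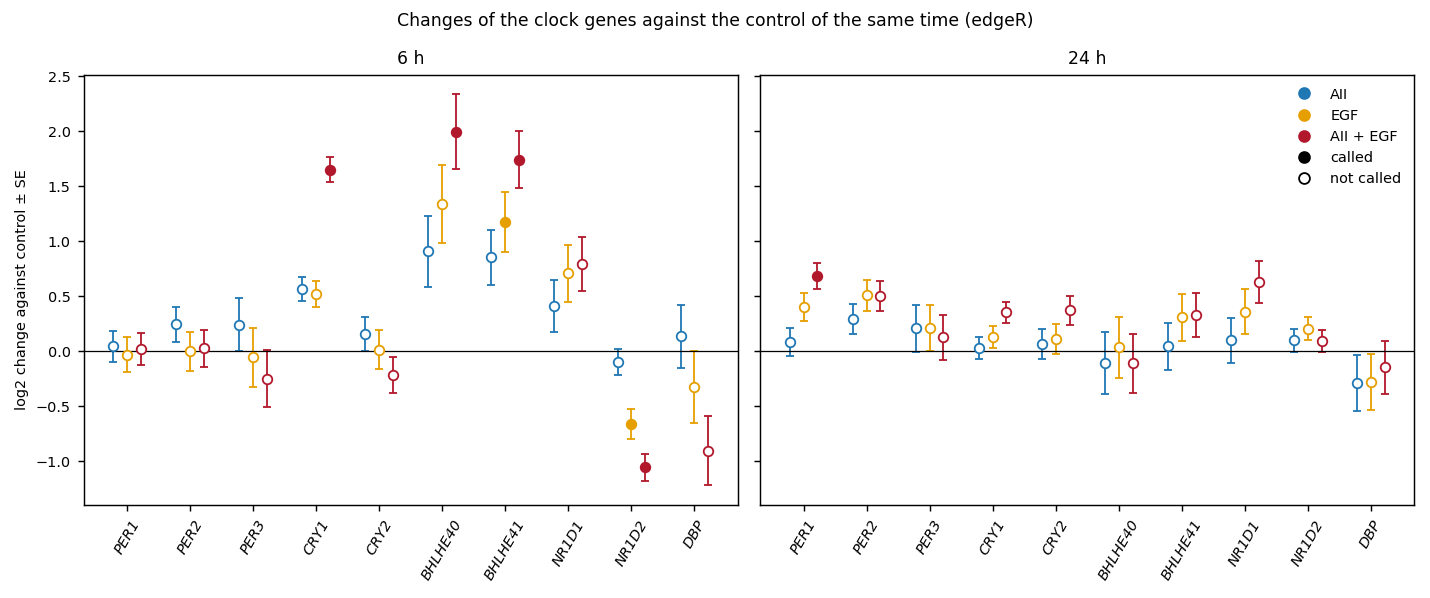
Log2 change ± SE of each clock gene against the control of its time, at 6 h (left) and 24 h (right), for AII, EGF and AII + EGF, fitted with edgeR. Filled points were called. The 6 h changes under AII + EGF span -1.06 (NR1D2) to 1.99 (BHLHE40), and at 24 h PER1 is the only filled point.

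BHLHE40 and BHLHE41, repressors that bind E-boxes and are also known as genes induced by low oxygen and by growth signals, rose side by side at 6 h. BHLHE40 was measured at 70.4, 63.8, 59.5 and 29.7 CPM in control, at 98.8, 105, 115, 97.4 and 107 CPM under AII and at 136, 142.5 and 144 CPM under EGF. Under AII + EGF it was 236, 228, 189.7 and 236 CPM. No library of any group overlapped with the next, and the lowest control was the library of title run 7. The log2 change was 0.91 ± 0.32 under AII (adjusted p = 0.16), 1.33 ± 0.35 under EGF (adjusted p = 0.015) and 1.99 ± 0.34 under AII + EGF (adjusted p = 1.3e-05), so that only the last was called. A fit without title runs 7 and 8, chosen after seeing the data, drops that lowest control. The same changes were then 0.70 ± 0.09 (adjusted p = 4.1e-06), 1.11 ± 0.10 (adjusted p = 8.9e-10) and 1.78 ± 0.10 (adjusted p = 7.6e-16), and all 3 were called. With title runs as a block they were 0.69 ± 0.12, 1.12 ± 0.12 and 1.77 ± 0.13 and were called too. The excess of AII + EGF over the sum of the single effects was 33.01 ± 14.8 CPM for BHLHE40 and 1.495 ± 1.02 CPM for BHLHE41. With only the near-identical pairs left out it was 1.94 CPM for BHLHE40 and -0.62 CPM for BHLHE41.

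BHLHE41 followed the same order at a lower level. It stood at 5.58, 6.33, 5.75 and 3.90 CPM in control, at 9.52, 11.2, 10.1, 9.33 and 8.55 CPM under AII and at 12.1, 12.7 and 11.6 CPM under EGF. Under AII + EGF it was 19.8, 17.6, 16.5 and 17.95 CPM, again with no overlap between neighbouring groups. It was called under EGF (1.17 ± 0.27, adjusted p = 0.0049) and under AII + EGF (1.74 ± 0.26, adjusted p = 1.4e-06), and not under AII (0.85 ± 0.25, adjusted p = 0.066). The AII change was called with title runs as a block (0.67 ± 0.12, adjusted p = 7.3e-04), without title runs 7 and 8 (0.72 ± 0.11, adjusted p = 1.0e-04) and with only the compared groups in the fit. The fit without these runs was chosen after seeing the data. The EGF call was lost on leaving out any of 6 libraries (adjusted p 0.012 to 0.0345), and in the fits of 40 and of 48 libraries. With libraries of consecutive titles summed it was lost too (adjusted p = 0.074), whereas the fit without title runs 7 and 8 gave 1.03 ± 0.12 (adjusted p = 3.4e-07).

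Between AII + EGF and AII at 6 h, 5 of the 10 genes were called, CRY1 (1.09 ± 0.10), BHLHE40 (1.09 ± 0.31) and BHLHE41 (0.88 ± 0.24) higher, and NR1D2 (-0.96 ± 0.12) and DBP (-1.04 ± 0.30) lower. Of all genes 7.6% were called, 4.21% higher and 3.39% lower. The count depended on the 2 libraries with labels in doubt, and with them in the fit (40 or 48 libraries) CRY1 was the only 1 called. The share of all genes called in those fits was not counted, so this drop is no result about the clock genes as a set. The call of BHLHE40 (adjusted p = 0.0073) was lost on leaving out any 1 of the 9 libraries (adjusted p 0.010 to 0.020), that of DBP (adjusted p = 0.0080) on leaving out any of 8 of them (0.012 to 0.035), and that of BHLHE41 without AII replicate 5 or AII + EGF replicate 1 or 5. With libraries of consecutive titles summed, BHLHE40, BHLHE41 and DBP were not called (adjusted p = 0.098, 0.056 and 0.038).

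At 24 h neither gene passed the test in any comparison of treatments, and the lowest library of each group was that of title run 8. BHLHE40 stood at 131 to 152 CPM in 5 control libraries and at 34.5 CPM in replicate 6, at 123 to 147 and 39.3 CPM under AII, at 129 to 158 and 54.5 CPM under EGF, and at 119 to 140.4 and 54.9 CPM under AII + EGF. The log2 changes of BHLHE40 against control lay between -0.11 ± 0.28 (AII) and 0.03 ± 0.28 (EGF). Relative to the 6 h control, the 24 h control was higher in BHLHE40 (1.15 ± 0.31, adjusted p = 0.0046) and BHLHE41 (0.89 ± 0.24, adjusted p = 0.0044) and lower in CRY1, 3 of 10 called against 6.72% of all genes (4.76% higher, 1.96% lower). Both BHLHE calls were lost without control 6 h replicate 5 or 6, that of BHLHE40 also without control 24 h replicate 2 and that of BHLHE41 without control 6 h replicate 3 (adjusted p 0.010 to 0.027), and both in the fits of 40 and 48 libraries.

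**Figure D3:**
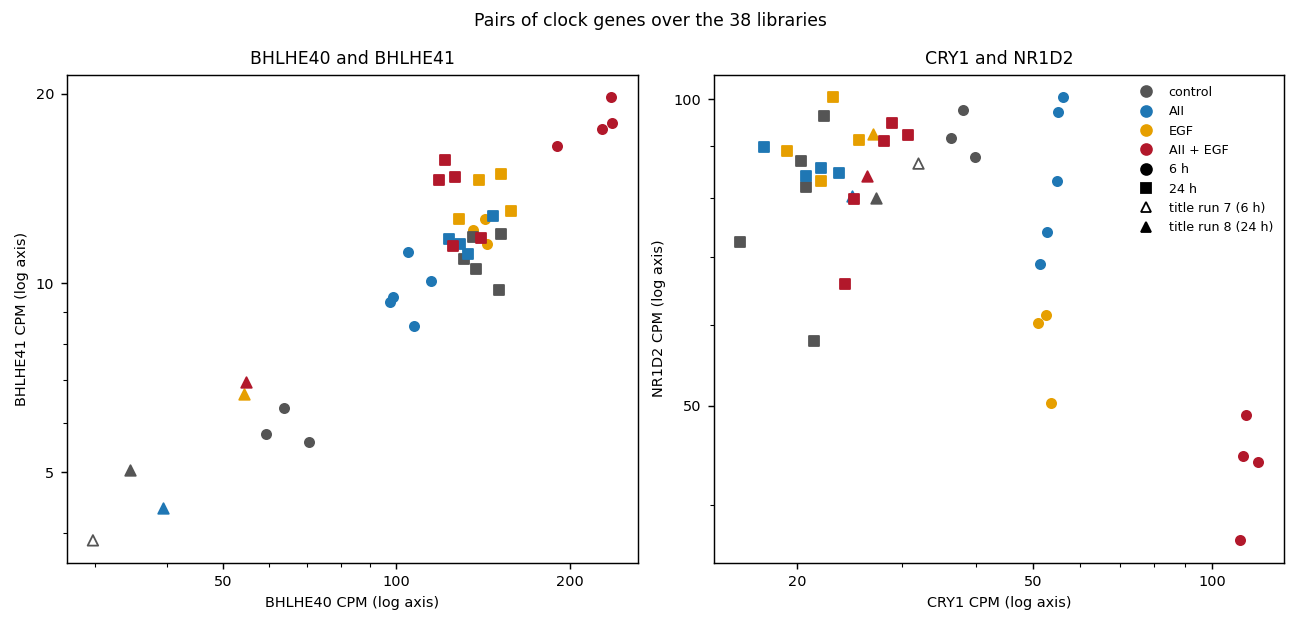
CPM of BHLHE41 against BHLHE40 (left) and of NR1D2 against CRY1 (right) in the 38 libraries, on log axes. Circles are 6 h and squares 24 h libraries, triangles title run 7 (open) and 8 (filled), and colours the treatments. On the left the points lie along a diagonal with the triangles at its low end, and on the right the 4 AII + EGF libraries at 6 h stand alone at high CRY1 and low NR1D2.

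The levels of BHLHE40 and BHLHE41 moved together across libraries. Pearson's r of log2 CPM was 0.94 over the 38 libraries and 0.93 after the group means were subtracted, where the libraries of title runs 7 and 8 are the low points. Within groups, CRY2 (r = 0.81), NR1D1 (0.77) and DBP (0.76) also deviated with BHLHE40. At 6 h CRY1 correlated with BHLHE40 (r = 0.90) and inversely with NR1D2 (r = -0.82), over 16 libraries that share the treatments. These coefficients describe libraries that share runs and depth.

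NR1D2, the gene of REV-ERBβ, fell at 6 h with EGF, alone or joined by AII. At 6 h it was measured at 87.8, 91.5, 97.5 and 86.5 CPM in control and at 97.2, 101, 68.95, 83.2 and 74.0 CPM under AII. Under EGF it was 61.4, 60.3 and 50.4 CPM, and under AII + EGF 44.7, 44.03, 49.02 and 36.9 CPM. AII overlapped with control only through replicates 1 and 2, from title run 1, of which no control was used. In title runs 4 and 5, which hold both, AII means were 76.1 and 74.0 CPM against 89.7 and 97.5 CPM in control. Every EGF and AII + EGF library lay below all AII and control libraries, and AII + EGF below EGF. The change was -0.10 ± 0.12 under AII (adjusted p = 0.80), -0.66 ± 0.13 under EGF (adjusted p = 9.5e-04) and -1.06 ± 0.12 under AII + EGF (adjusted p = 1.2e-08). AII + EGF differed from EGF by -0.39 ± 0.13 (adjusted p = 0.050), which was not called. The EGF call was lost without EGF replicate 5 (-0.58, adjusted p = 0.021) and with only the pairs left out (-0.66, adjusted p = 0.075). At 24 h NR1D2 was back among the controls, with log2 changes of 0.10 ± 0.10 (AII), 0.20 ± 0.10 (EGF) and 0.09 ± 0.10 (AII + EGF).

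NR1D1, the gene of REV-ERBα, pointed the other way at a low level. At 6 h the means were 2.78 ± 0.61 CPM in control, 3.70 ± 0.53 under AII, 4.54 ± 0.89 under EGF and 4.82 ± 0.42 under AII + EGF (SD, n = 4, 5, 3 and 4), all under the abundance minimum. The AII + EGF change was 0.79 ± 0.25 (adjusted p = 0.011) at 6 h. At 24 h it was 0.62 ± 0.19 (adjusted p = 0.019), with 2.38 to 5.93 CPM in control and 3.84 to 8.30 CPM under AII + EGF. Without title runs 7 and 8 (chosen after seeing the data), or with the runs as a block, NR1D1 was called at 24 h (0.64 ± 0.16 and 0.63 ± 0.13), as it was by DESeq2 and without control 24 h replicate 3 or AII + EGF 24 h replicate 6. It shares 473 bases of its exons with THRA on the opposite strand, and whether the counting used strand is not stated, so reads of THRA may stand in its counts.

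DBP, the D-box activator, tended to lower values under AII + EGF at 6 h. It stood at 11.1, 8.24, 6.55 and 3.20 CPM in control and at 7.73, 7.08, 8.77, 7.77 and 8.35 CPM under AII. Under EGF it was 5.72, 5.61 and 5.95 CPM, and under AII + EGF 2.97, 4.28, 3.96 and 4.23 CPM. The controls overlapped with every other group, the library of title run 7 being their lowest. Against control the EGF change was -0.33 ± 0.33 (adjusted p = 0.67), and all EGF libraries lay within the control range. The AII + EGF change was -0.91 ± 0.31 (adjusted p = 0.022). It was called with title runs as a block (-1.06 ± 0.25, adjusted p = 0.0011), with all 48 libraries (-1.04 ± 0.26, adjusted p = 0.0016) and, in the fit chosen after seeing the data, without title runs 7 and 8 (-1.16 ± 0.25, adjusted p = 3.7e-04). It was not called with 40 libraries (-1.05 ± 0.32, adjusted p = 0.014). At 24 h the changes lay between -0.29 ± 0.26 (AII) and -0.15 ± 0.24 (AII + EGF), with 1 control library, replicate 3, at 17.1 CPM and the others at 3.62 to 8.80 CPM.

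The responses at 6 h and 24 h were compared in the same fit. For AII + EGF, 5 of the 10 genes differed between the times, against 11.6% of all genes (5.49% with a higher and 6.08% with a lower change at 24 h). The change was lower at 24 h in BHLHE40 (-2.11 ± 0.43, adjusted p = 2.7e-04), BHLHE41 (-1.41 ± 0.33, adjusted p = 0.0012) and CRY1 (-1.30 ± 0.15, adjusted p = 1.3e-08). It was higher in NR1D2 (1.15 ± 0.16, adjusted p = 7.6e-07) and in PER1 (0.66 ± 0.19, adjusted p = 0.0081). For EGF, NR1D2 was the only 1 of 10 called (0.87 ± 0.17, adjusted p = 0.0018), against 1.03% of all genes (0.255% higher at 24 h). It was lost without EGF 6 h replicate 5 and with only the pairs left out. The BHLHE41 difference was lost with 48 libraries (-0.86, adjusted p = 0.066), with 40 (-1.18, adjusted p = 0.027) and with consecutive libraries summed (-1.43, adjusted p = 0.022), and that of BHLHE40 with 48 (-1.43, adjusted p = 0.014) and with summed libraries (-2.14, adjusted p = 0.011). With 48 libraries the count was again 5, with PER2 and CRY2 called in place of BHLHE40 and BHLHE41. The PER1 difference was lost with only the compared groups in the fit, with summed libraries and on leaving out any of 13 of 20 libraries (adjusted p 0.011 to 0.024). For AII none of the 10 was called by edgeR or DESeq2 (0.138% of all genes), while 3 had an unadjusted p under 0.05.

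Per kilobase of merged exon, only a rough scale between genes, the order in the 6 h control was BHLHE40 (15.9 ± 5.12 CPM per kb), NR1D2 (15.7 ± 0.85), CRY1 (7.64 ± 0.70), PER1 (3.25 ± 0.41), CRY2 (2.34 ± 0.20), BHLHE41 (1.40 ± 0.27), DBP (1.12 ± 0.51), NR1D1 (1.06 ± 0.23), PER2 (0.898 ± 0.12) and PER3 (0.181 ± 0.021, all SD, n = 4). BHLHE40 and NR1D2 did not differ beyond their spread, nor did the 4 genes from BHLHE41 to PER2 beyond that of their neighbours. Under AII + EGF at 6 h BHLHE40 led at 63.3 ± 6.32 CPM per kb, CRY1 was second at 24.0 ± 0.75 and NR1D2 came next at 7.53 ± 0.87. Lengths are of the merged exons of all transcripts in GENCODE 44 on GRCh37. Such a length can exceed that of the transcript expressed, which understates the level. For DBP it was 6485 bases, in a gene at chr19:48630030-48637379 (GRCh38.p14). The order by the length of the expressed transcript was not tested. BHLHE40 lies on chr3:4979437-4985323, CRY1 on chr12:106991364-107093549, NR1D2 on chr3:23945286-23980617, BHLHE41 on chr12:26120030-26125037 and PER1 on chr17:8140472-8152404 (GRCh38.p14). BHLHE40 shares 12.8% of its exon length with BHLHE40-AS1, PER3 10.7% with UTS2 and DBP 10.2% with SPHK2, each on the opposite strand. How many of their counts are reads of the neighbour was not tested.

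The genes whose log2 CPM followed a called clock gene most closely over the 38 libraries were found by Pearson's r. For CRY1 they were FAM3C (r = 0.97) and EN2 (0.96). BHLHE40 was followed by ZNF395 (0.97) and LDHA, a lactate dehydrogenase of glycolysis (0.94), and BHLHE41 by SH2B3 (0.94) and NDRG1 (0.93). For NR1D2 they were ZFP14 (0.91) and ARHGAP28 (0.91), for PER1 MVP (0.93) and TTC7A (0.92), and for DBP NUCB1 (0.90) and CRTAP (0.88). The libraries share treatments, runs and depth.

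Of 41 other genes of the clock, its regulators and outputs, 38 could be tested, and 13 of them were called in at least 1 of the 16 comparisons. The share of all genes called in at least 1 comparison was not counted, so these 13 have no base rate. Under AII + EGF at 6 h 9 of 38 were called, 8 higher and 1 lower, where 12% of all tested genes were called, with a median log2 change over the 38 of 0.16. Under EGF at 6 h 2 were called (1.94% of all genes), at 24 h 1 under EGF (0.245% of all genes) and 2 under AII + EGF (2.89% of all genes). The lists were assembled with earlier results of these data known. Calls of these other genes were not checked in the alternative fits or by leaving out libraries.

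Among the activators NPAS2, a paralog of CLOCK that can take its place beside BMAL1, rose most. Its group means at 6 h were 6.49 CPM in control, 8.67 under AII, 14.04 under EGF and 26.8 under AII + EGF. The log2 change was 1.11 ± 0.15 under EGF (adjusted p = 1.5e-06) and 2.04 ± 0.14 under AII + EGF (adjusted p = 2.9e-14), and AII + EGF exceeded EGF by 0.93 ± 0.15. ARNTL, the target of the REV-ERB receptors, stood at 4.98 ± 0.84 CPM in control and 7.54 ± 0.11 CPM under EGF (SD, n = 4 and 3), a rise of 0.60 ± 0.15 (adjusted p = 0.0084). Both the fold and the adjusted p lay close to the limits of a call. Under AII + EGF ARNTL was at 7.31 ± 0.49 CPM (0.55 ± 0.14, under the fold minimum). ARNTL2 (BMAL2) rose by 0.61 ± 0.12 under AII + EGF. CLOCK itself showed no called change, its 6 h means being 33.3 ± 4.86 CPM without stimulus and 43.9 ± 6.13 CPM with AII + EGF (0.40 ± 0.18).

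**Figure D4:**
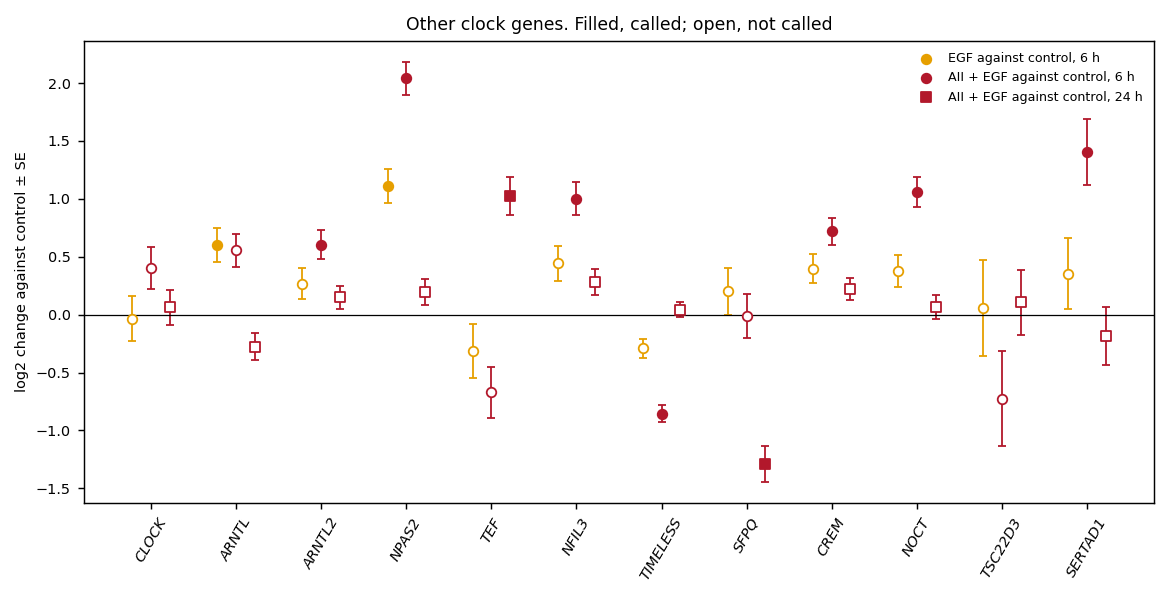
Log2 change ± SE against control of 12 other clock genes under EGF at 6 h (orange circles), AII + EGF at 6 h (red circles) and AII + EGF at 24 h (red squares). Filled symbols were called. NPAS2 reaches 2.04 at 6 h under AII + EGF, and at 24 h only TEF (1.02) and SFPQ (-1.29) are filled.

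Some output and input factors of the clock also moved under AII + EGF at 6 h, named here for the lowest adjusted p among those listed. NFIL3, a repressor that competes with DBP at D-boxes, rose by 1.00 ± 0.14, NOCT, a deadenylase-related clock output, by 1.06 ± 0.13, CREM, a factor of the cAMP response, by 0.72 ± 0.11, and SERTAD1 by 1.41 ± 0.28. The means of the other listed genes of the cAMP input went both ways. Lower than control were CREB1 (42.5 against 47.9 CPM), CRTC1 (29.2 against 39.5) and SIK2 (50.6 against 59.45). Higher were CRTC2 (70.7 against 61.9), SIK1 (19.6 against 14.8) and SIK3 (47.2 against 42.8). So did other outputs, such as KLF10 (123 against 64.9) and KLF11 (23.6 against 33.35). TIMELESS, a partner in replication and the clock, fell by 0.85 ± 0.08, from 190.1 to 105 CPM in the group means. At 24 h TEF, a relative of DBP, rose by 1.02 ± 0.17 under AII + EGF (from 10.1 to 20.6 CPM), and SFPQ, a splicing factor that binds PER complexes, fell by 1.29 ± 0.16 (577 and 236 CPM). TEF at 6 h was lower under AII + EGF than under AII (-0.74 ± 0.21), and its AII + EGF response differed between the times (1.70 ± 0.28, adjusted p = 1.5e-05). TSC22D3, a glucocorticoid-induced clock output, rose between the controls from 3.15 CPM at 6 h to 9.89 CPM at 24 h (1.65 ± 0.35), where time and run cannot be told apart.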

How the data were processed

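The authors enriched poly(A) RNA, mapped the reads to hg38 with HISAT2 2.1.0, per the labels, assigned them to Ensembl genes by featureCounts and deposited the counts unnormalised. Multiple mapping and strand are not given in the sources used here. Groups were read from the labels, and replicate numbers follow the order of deposition. Within a time a number falls into the same title run in all 4 treatments, so libraries of 1 number share a run. Among the libraries used at 6 h, however, run 1 held only AII and AII + EGF, and run 7 only control replicate 6. Treatment and run were therefore partly confounded at 6 h. The main fit has no term for the run, and the fit with runs as a block is an alternative. In that alternative the term of run 7 rests on 1 library.

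From the deposited counts, 38 of 48 libraries were fitted in 1 model of 8 groups with edgeR 4.0.16 (R 4.3.3): filterByExpr, TMM factors, quasi-likelihood tests of 16 comparisons and Benjamini-Hochberg adjustment over 19626 genes. CPM were scaled with TMM factors. Calls needed an adjusted p under 0.01, a 1.5-fold change and more than 5 CPM in the higher group. The clock genes, the further list and the left-out libraries were chosen with earlier results of these data known. Besides the 10 genes, the text names the 10 other clock genes called with the lowest adjusted p, ARNTL and CLOCK, and for each called clock gene the 2 genes of highest Pearson's r (log2 CPM, prior count 2) above a mean of 5 CPM. Correlations have no test. The steps were tested on simulated data. Depth limits the precision of PER3 and NR1D1 most.

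Alternatives were DESeq2 1.42.0, RLE factors, no filter, the study's filter (1 normalised count in more than 5 libraries), an adjusted p under 0.05, dropping the fold or the abundance minimum, fits limited to the compared groups, all 48 or 40 libraries, title runs as a block, summing libraries with consecutive titles of 1 group, leaving out each library and, chosen after seeing the data, leaving out title runs 7 and 8. For the linear excess, library totals and medians were tried. Promoters and positions are from RefSeq on GRCh38.p14, exon lengths and overlaps from GENCODE 44 on GRCh37.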

Additional observations from a re-analysis of the deposited data

Results flagged for a closer look

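Of 70 combinations of a clock gene and a group of 4 or more libraries, 9 held a library far from the others of its group, where chance gives about 1 in 20. Of these 9, 8 were the library of title run 8. BHLHE40 stood at 34.5 CPM in control 24 h replicate 6 (the others at 131 to 152), at 39.3 CPM in AII 24 h replicate 6 (123 to 147), at 54.5 CPM in EGF 24 h replicate 6 (129 to 158) and at 54.9 CPM in AII + EGF 24 h replicate 6 (119 to 140.4). BHLHE41 stood at 5.04 CPM in control 24 h replicate 6 (9.74 to 11.96), at 4.39 CPM in AII 24 h replicate 6 (11.1 to 12.8) and at 6.66 CPM in EGF 24 h replicate 6 (12.6 to 14.9). PER1 stood at 30.3 CPM in AII + EGF 24 h replicate 6 (45.4 to 51.7). Outside that run, NR1D1 stood at 3.69 CPM in control 6 h replicate 4 (2.45 to 2.50).

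For 6 combinations of a gene and a stimulus the tested response differed between 6 h and 24 h, as log2 change at 24 h minus that at 6 h. Under AII + EGF these were BHLHE40 (-2.11), BHLHE41 (-1.41), CRY1 (-1.30), NR1D2 (1.15) and PER1 (0.66), and under EGF NR1D2 (0.87).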

How the results depend on the processing

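Of the clock genes called, those under AII + EGF at 6 h (4) were called in each alternative. Without title runs 7 and 8 (chosen after seeing the data), the count called was 2 for AII at 6 h, 1 for EGF at 24 h, 2 for AII + EGF at 24 h, 2 for AII + EGF against EGF at 6 h, and 1 and 3 for the difference of the AII and EGF responses between the times. With title runs as a block the counts were 2 (AII 6 h), 2 (AII + EGF 24 h), 2 (against EGF 6 h), 1 (interaction 6 h), 1 and 3 (AII and EGF response differences), and the 24 h against 6 h control gives no value there, since no run holds both times. Fitting only the groups compared gave 1 (AII 6 h), 3 (against EGF 6 h), 0 (against AII 24 h), 1 (control 24 h against 6 h) and 0 (EGF response difference). All 48 libraries gave 1 (AII 6 h), 1 (against AII 6 h) and 1 (controls), and 40 libraries gave 0 (EGF 6 h), 1 (against AII 6 h), 1 (controls) and 0 (EGF response difference). Summing consecutive libraries gave 1 (EGF 6 h), 2 (against AII 6 h), 0 (against AII 24 h), 1 (controls), 0 (EGF response difference) and 2 (AII + EGF response difference). No fold minimum gave 1 (AII 6 h) and 3 (AII + EGF 24 h), an adjusted p under 0.05 gave 2 and DESeq2 gave 2 for AII + EGF at 24 h. Of all 19626 genes DESeq2 called 611 in that comparison. For the other settings, leaving out each library included, the number called among all genes was not counted. A change in these counts is therefore no result about the clock genes as a set. With 48 libraries an equal count held other genes for EGF at 6 h (CRY1 in place of BHLHE41) and for the AII + EGF response difference (PER2 and CRY2 in place of BHLHE40 and BHLHE41). The linear excess at 6 h was 1.94 CPM (BHLHE40), -0.62 (BHLHE41), 7.74 (NR1D2, from -7.67) and 24.8 (CRY1) with 40 libraries, 8.13 (NR1D2) and 14.65 (CRY1) with 48, and 39.03 (CRY1) by library totals. The cause was not tested.

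Leaving out each library in turn gave 0 to 1 called (AII 6 h), 0 to 2 (EGF 6 h), 4 to 5 (AII + EGF 6 h), 0 to 1 (EGF 24 h), 1 to 2 (AII + EGF 24 h), 2 to 4 (against AII 6 h), 0 to 1 (against AII 24 h), 1 to 3 (controls), 0 to 1 (EGF response difference) and 4 to 6 (AII + EGF response difference). The excess ranged from 43.2 to 46.5 CPM (CRY1), 28.15 to 43.9 (BHLHE40), 0.886 to 1.99 (BHLHE41), -11.6 to -3.71 (NR1D2) and, at 24 h, 4.85 to 9.43 (PER1). With 3 EGF libraries at 6 h, each library weighs most there.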
